A study of Homo sapiens with 4 samples.

Results

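The 10 genes described here set or mark the balance between the epithelial and the mesenchymal state: the transcription factors SNAI1, SNAI2, TWIST1, TWIST2, ZEB1 and ZEB2, the cadherins CDH1 and CDH2, the intermediate filament gene VIM and the splicing factor gene ESRP1. They were chosen by name and are 10 of the 20137 genes in the deposited tables. RNA was sequenced from MDA-MB-231, a human triple-negative breast cancer line, in 2 control libraries and 2 libraries with a knockdown of AURKA, the gene of the mitotic kinase Aurora A. The control cells have the genotype label control, carry shC in their titles and are called mock-transfected in the design text, while the knockdown cells carry shA. All cells grew in L-15 medium with 10% serum and antibiotics. The hairpin, whether the cells were a clone or a pool, and what a replicate number marks are not given in the sources used here, so p-values measure only the spread between these libraries, which may be technical.

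Epithelial cells are held together by E-cadherin, the product of CDH1. In the epithelial-mesenchymal transition, Snail, Twist and ZEB proteins repress CDH1 and other junction genes, and cells take on N-cadherin, vimentin and a motile form. Snail and ZEB proteins are zinc-finger factors that bind the E-box CAGGTG, and ESRP1 directs the epithelial pattern of splicing and is itself repressed by ZEB factors. MDA-MB-231 is widely used as a line of mesenchymal character.

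Promoter windows are shown for the genes at the ends of the range of transcription factors, ZEB1, the highest of the 6, and TWIST2, listed at 0 in every library. Each window is the 250 bases before a RefSeq start site on the plus strand of GRCh38.p14, in lower case, with each CAGGTG or its reverse complement CACCTG in capitals. RefSeq windows were matched for 5 of the 10 genes, ZEB1, ZEB2, TWIST2, VIM and CDH2. ZEB1 has 7 windows. The RefSeq start after chr10:31318966-31319215 lies within 100 bases of the GENCODE 29 starts of 6 ZEB1 transcripts, which held 97.3% of the summed ZEB1 value. Some of these starts lie inside the window, among them that of ENST00000320985 at 31319125. The CAGGTG of this window is thus downstream of that start. The RefSeq start after chr10:31320951-31321200 lies by the starts of 2 transcripts with 2.02%, which are also inside their window. The TWIST2 window is chr2:238847835-238848084.
ZEB1, start with 97.3% of the value: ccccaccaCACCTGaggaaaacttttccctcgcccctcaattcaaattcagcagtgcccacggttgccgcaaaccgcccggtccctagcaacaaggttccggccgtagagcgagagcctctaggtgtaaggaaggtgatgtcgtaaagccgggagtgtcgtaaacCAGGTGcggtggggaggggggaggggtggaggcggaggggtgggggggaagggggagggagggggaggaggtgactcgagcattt
ZEB1, start with 2.02% of the value: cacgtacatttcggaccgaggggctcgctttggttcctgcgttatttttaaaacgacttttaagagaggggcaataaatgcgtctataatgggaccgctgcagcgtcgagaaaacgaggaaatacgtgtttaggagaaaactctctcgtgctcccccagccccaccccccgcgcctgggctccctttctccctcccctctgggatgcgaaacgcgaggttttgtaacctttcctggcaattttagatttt
TWIST2: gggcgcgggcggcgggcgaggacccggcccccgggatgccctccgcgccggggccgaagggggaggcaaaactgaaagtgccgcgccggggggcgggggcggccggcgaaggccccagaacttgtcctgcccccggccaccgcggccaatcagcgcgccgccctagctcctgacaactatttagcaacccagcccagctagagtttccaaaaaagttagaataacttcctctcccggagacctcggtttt
The first ZEB1 window holds 2 E-boxes and 14 CpG dinucleotides. The second holds 0 E-boxes and 18 CpG, and the TWIST2 window 0 E-boxes and 26 CpG. Of all 35116 RefSeq windows of this length, 17.5% hold at least 1 of these E-boxes, and the median number of CpG is 11. A match to these letters is not evidence of binding, and no other motif was searched.

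The values are read as FPKM, fragments per kilobase scaled by the depth of the library, so levels can be compared between genes. A gene was called silent if it was under 0.1 FPKM in every library, expressed if it was at least 1 FPKM in every library, and low otherwise. By this measure 5 of the 10 genes were expressed (VIM, ZEB1, ZEB2, SNAI1 and SNAI2), 3 were low (ESRP1, CDH2 and TWIST1) and 2 were silent (CDH1 and TWIST2). Over all 20137 genes, 57.1% were expressed, 20.0% low and 23.0% silent. A limit of 0.3 FPKM, or the most abundant transcript of each gene in place of the sum, also gave 2 silent genes. Mean levels over the 4 libraries were 1880 ± 158 FPKM for VIM, 31.6 ± 2.45 for ZEB1, 16.8 ± 3.30 for ZEB2, 4.52 ± 2.60 for SNAI1, 3.46 ± 1.10 for SNAI2 and 0.720 ± 0.147 for ESRP1 (SD, n = 4). Below these stood CDH2 at 0.185 ± 0.133 FPKM, TWIST1 at 0.181 ± 0.209, CDH1 at 0.0327 ± 0.0172 and TWIST2 at 0. In this order, neighbours overlapped in range only for SNAI1 with SNAI2, CDH2 with TWIST1 and TWIST1 with CDH1.

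**Figure D1:**
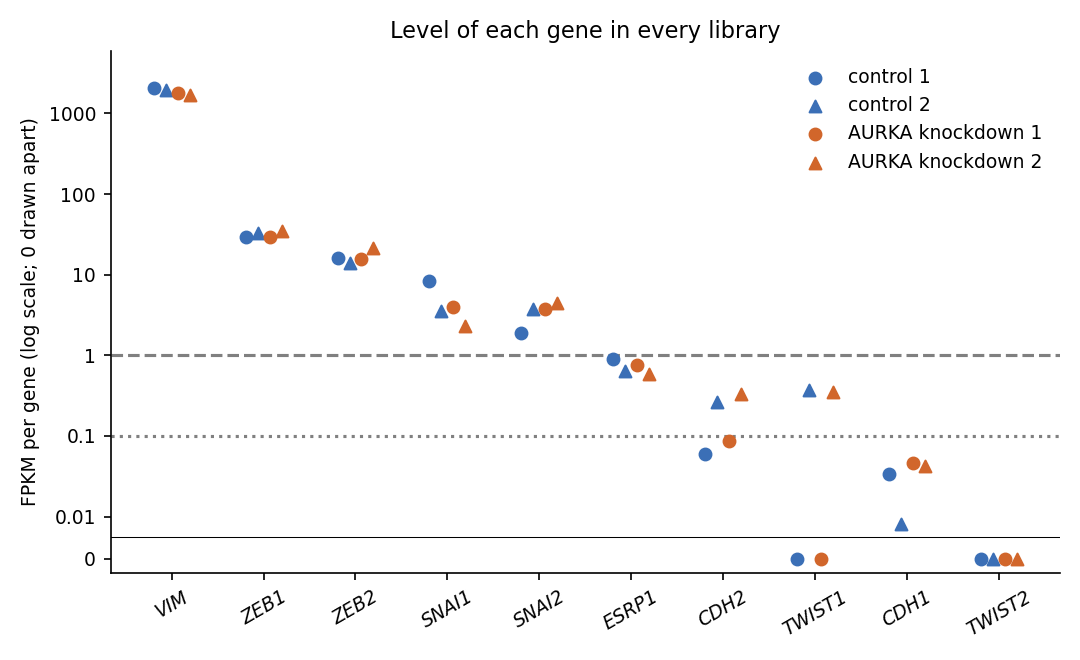
FPKM of each gene (log axis, with 0 drawn apart) in the 2 control and 2 knockdown libraries, 1 point per library. VIM lies near 1880 FPKM, ZEB1 and ZEB2 between 13.8 and 34.7, and CDH1 under 0.1 in all 4 libraries.

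**Figure D2:**
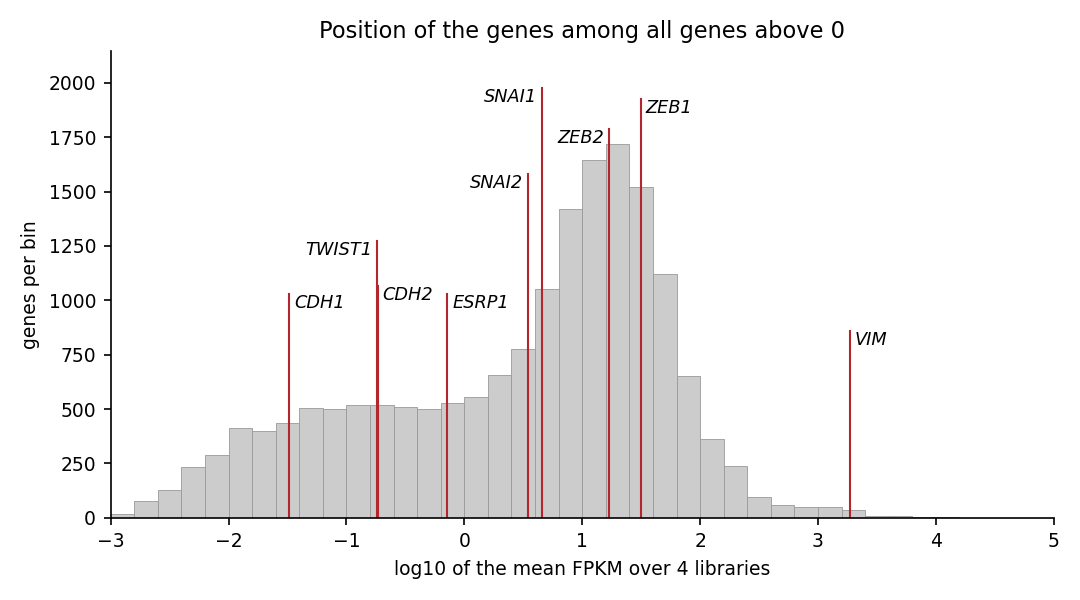
Number of genes by log10 of the mean FPKM over the 4 libraries, for all genes above 0, with a line (its height has no meaning) at each described gene except TWIST2, which is at 0. VIM lies at the upper end, SNAI1 and SNAI2 in the body of expressed genes and CDH1 in the lower tail.

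The labels were checked on the targeted gene. AURKA stood at 124 and 99.1 FPKM in control cells against 22.3 and 23.7 FPKM after knockdown, 4.86-fold lower on the means and with no overlap between groups (log2 difference -2.22, SE 0.15, on log2(FPKM + 1)). Each replicate number, with 1 library of each group, was inferred from row order and loci to be a quantification run of its own. Each test is therefore given in a fit without the run and in a second fit that has the run as a term. That term is the replicate number, so it also takes up anything else that differed between the numbers. The adjusted p of AURKA was 0.0819 in limma over 12136 genes and 0.000696 in limma with the run as a term. Without the run, 0 of 12136 genes passed an adjusted p of 0.05 (0%), with 773 at an unadjusted p under 0.05, and with the run 417 passed (3.44%), 186 higher and 231 lower in the knockdown. Between 11738 and 12177 genes reached 1 FPKM per library, and depth was roughly 17300000 to 27700000 fragments, as estimated from the steps of low values. The line's own markers (VIM, CD44, EGFR, MSN and CAV1) were all expressed, with sums of 2691 to 2862 FPKM in the controls and 2456 to 2572 in the knockdown. VIM, itself a described gene, made up most of these sums. The luminal keratins KRT8, KRT18 and KRT19 summed to 619 to 707 FPKM in the controls and 681 to 694 in the knockdown. The list of luminal breast genes summed to 27.1 to 28.0 FPKM in the controls and 25.4 to 30.2 in the knockdown, and 4 of its 6 genes were expressed, among them ERBB2 (16.5 to 20.2 FPKM), FOXA1 and GATA3, while ESR1 and PGR were at 0.271 FPKM or less. Of the remaining markers, 3 of 3 basal keratins were silent, leukocyte markers summed to 0.175 to 0.367 FPKM with CD3E at 0, endothelial markers to 0.0136 to 0.130 FPKM, and fibroblast markers to 3.40 to 6.41 FPKM in the controls and 3.24 to 4.56 in the knockdown.

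No change in the 5 expressed genes passed the test in the knockdown. They are the 5 of the 10 that reached 1 FPKM in at least 2 libraries and were tested, and 0 of them passed in either fit, beside 0% of all tested genes without the run and 3.44% with it. At an unadjusted p under 0.05 the counts were 0 of 5 without the run and 2 of 5 with it, SNAI1 and SNAI2, beside 6.37% and 22.1% of all tested genes (773 and 2683). Of the 5, 3 were above 0 and 2 below, with a median log2 difference of 0.05, against 0.01 over all 12136 genes. In 1 of the 5, VIM, the 2 groups did not overlap (20%), a pattern shown by 35.9% of all tested genes. A permutation test of a single gene cannot go below a two-sided p of 0.333 with 2 libraries against 2.

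The Snail factors came nearest to the threshold, and their differences lay in opposite directions. SNAI1, whose product represses CDH1, lies on chromosome 20 at 48599536 to 48605423 (positions of loci are those of the files, read as GRCh37). It stood at 8.29 and 3.52 FPKM in control replicates 1 and 2 and at 3.95 and 2.33 FPKM in knockdown replicates 1 and 2. Control replicate 1 was the highest library, knockdown replicate 2 the lowest, and the groups overlapped. Within the replicate numbers, SNAI1 was 2.10-fold lower in the knockdown in number 1 and 1.51-fold lower in number 2. The log2 difference was -0.68 (SE 0.40, 95% interval -1.68 to 0.32, adjusted p 0.852 in limma). With the run as a term the SE was 0.16, the interval -1.06 to -0.29 and the adjusted p 0.0739. With the run and a second scaling of the libraries, the adjusted p was 0.0222 (median of ratios) or 0.0233 (upper quartile), so the side of the threshold depended on scaling. The log2 difference was -0.16 without control replicate 1, the library that was highest, and -1.19 without control replicate 2. For every gene, leaving out 1 library breaks the pairs, so any gap between the replicate numbers enters such a difference. These values rest on an estimated 109 to 242 fragments per library and on the gene's 1 annotated transcript. In bulk RNA, fewer cells with a transcript and less of it per cell cannot be told apart.

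SNAI2, the gene of Slug, lies on chromosome 8 at 49830249 to 49834299. Its values were 1.87 and 3.80 FPKM in control cells against 3.78 and 4.41 FPKM after knockdown. Control replicate 1 was the lowest of the 4, and the other 3 lay close together, so the groups overlapped. Within the replicate numbers the knockdown was 2.02-fold and 1.16-fold higher. The log2 difference was 0.46 (SE 0.29, 95% interval -0.28 to 1.19, adjusted p 0.857), and with the run as a term the interval was 0.03 to 0.88 and the adjusted p 0.202, both by limma. Without control replicate 1 the log2 difference was 0.08, and without control replicate 2 it was 0.83. A short SNAI2 transcript of 89 residues, ENST00000396822, was listed at 0 in each control, and at 0.861 and 0.270 FPKM after knockdown, at most 22.8% of the gene's value, with no test. The 268-residue ENST00000020945 was at 1.87 and 3.80 FPKM in control cells against 2.92 and 4.14 FPKM after knockdown. A sizeable part of the summed difference in each replicate number thus lay in the short form. The ratio of SNAI1 to SNAI2 was 4.44 in control replicate 1, 0.928 in control replicate 2, and 1.05 and 0.528 in the knockdown. Control replicate 1 was thus the 1 library in which SNAI1 was several times higher than SNAI2, and the size of both Snail differences depended on it.

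**Figure D3:**
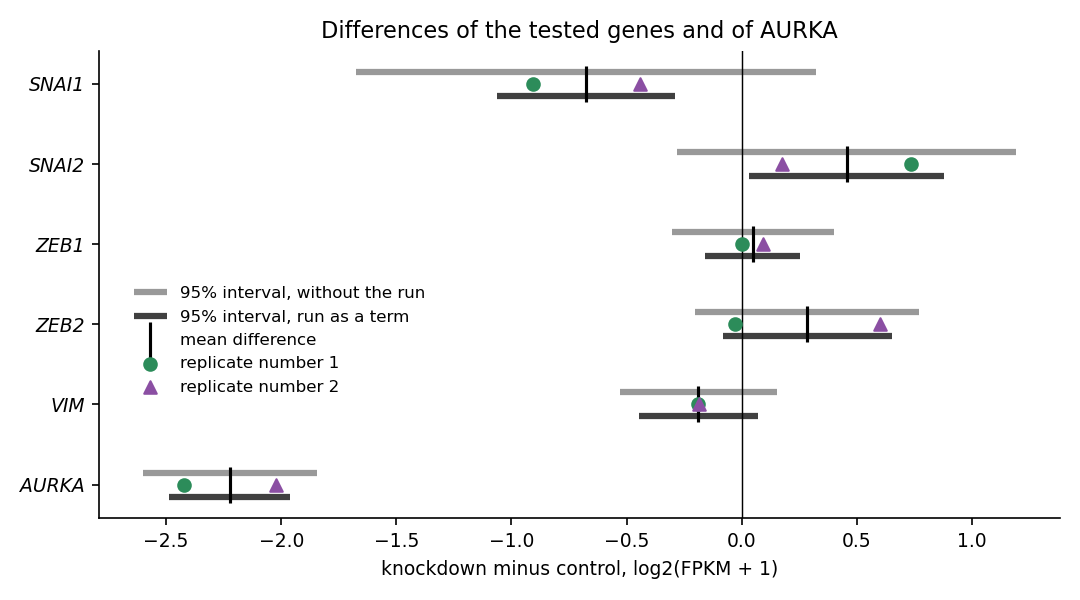
Knockdown minus control on the log2(FPKM + 1) scale for AURKA and the 5 tested genes, with the difference in each replicate number (circle and triangle), the mean (tick) and the 95% limma intervals of both fits, without the run and with it. AURKA lies at -2.22, and without the run the intervals of all 5 described genes include 0.

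The ZEB factors, zinc-finger and homeobox proteins that repress CDH1 and the miR-200 genes, were the highest of the transcription factors. ZEB1, on chromosome 10 at 31596922 to 31818741, stood at 29.6 and 32.5 FPKM in control cells against 29.7 and 34.7 FPKM after knockdown. The replicate 1 libraries were nearly equal, and both replicate 2 libraries were slightly higher. The log2 difference was 0.05 (SE 0.14, 95% interval -0.30 to 0.40, adjusted p 0.983 in limma), and with the run as a term the interval was -0.16 to 0.25 (adjusted p 0.789). Its sign turned when 1 library was left out, to -0.02 without control replicate 1 and -0.06 without knockdown replicate 2. ZEB1 was one of the more deeply measured genes here, with an estimated 1696 to 2955 fragments per library.

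ZEB2, on chromosome 2 at 145141648 to 145278621, stood at 16.0 and 13.8 FPKM in control cells against 15.7 and 21.5 FPKM after knockdown. Knockdown replicate 2 was the highest library, and the other 3 lay between 13.8 and 16.0 FPKM, so the groups overlapped. The knockdown differed from control by -0.03 in replicate number 1 and 0.60 in number 2 on the log2 scale. The overall log2 difference was 0.28 (SE 0.19, 95% interval -0.20 to 0.77, adjusted p 0.862), or an interval of -0.08 to 0.65 and an adjusted p of 0.330 with the run, both by limma. Without knockdown replicate 2 it was 0.07. ZEB1 was higher than ZEB2 in every library, with a ratio of 1.85, 2.34, 1.89 and 1.61 in control 1, control 2, knockdown 1 and knockdown 2.

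Several transcripts made up both ZEB genes. For ZEB1, the full-length ENST00000320985 (1124 residues) held 37.3% to 39.1% of the value in each library, and the short ENST00000424869 (887 bases, 289 residues) held 30.9% to 42.2%. A second long form, ENST00000560721 (1104 residues), was at 6.83 and 4.46 FPKM in control cells against 4.76 and 3.73 FPKM after knockdown, or 10.8% to 23.1% of the gene. For ZEB2, the full-length ENST00000303660 (1213 residues) held 17.7% of the value in control replicate 1 and up to 39.1% in control replicate 2. The 184-residue ENST00000431672 held 38.7% and 19.7% in the same libraries, so the order of these ZEB2 forms differed between the controls. Most of the higher ZEB2 value of knockdown replicate 2 over control replicate 2 lay in this short form. It stood at 2.73 FPKM in control and 7.87 FPKM in knockdown replicate 2, against 5.41 and 5.75 FPKM for the full-length form. Between the replicate 1 libraries, the short form was lower in the knockdown and the full-length form higher. Transcript values were not tested, since the split of reads between overlapping transcripts is an estimate and its error is not given in the tables.

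**Figure D4:**
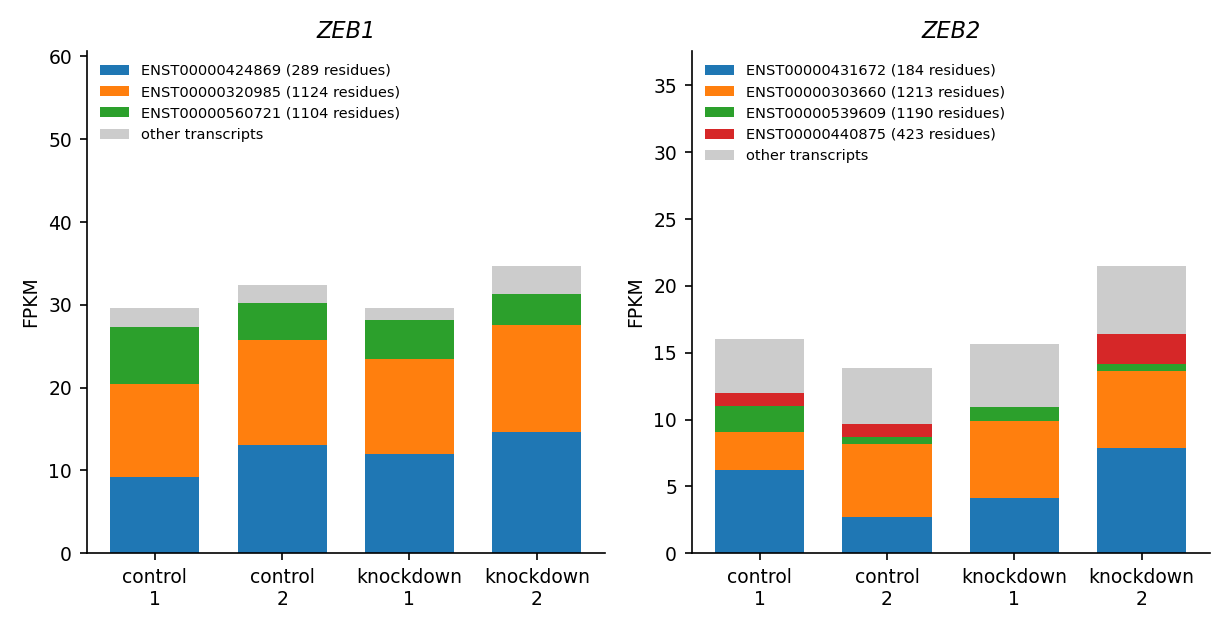
FPKM per library of ZEB1 and ZEB2, stacked by transcript, with transcripts under 10% of the gene in every library joined as other transcripts. The long ENST00000320985 takes 37.3% to 39.1% of ZEB1 in all 4 libraries, while the shares of the ZEB2 transcripts differ between the 2 controls.

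The Twist factors, basic helix-loop-helix proteins, were near or at 0. TWIST1 (chromosome 7, 19155091 to 19157295) was listed at 0 in both replicate 1 libraries and at 0.373 FPKM in control and 0.350 FPKM in knockdown replicate 2. It thus differed by replicate number and not by group, with an estimated 15.2 and 16.2 fragments behind the latter values. A count of 3 fragments, the limit that a count of 0 allows, would be 0.104 FPKM in control and 0.0853 FPKM in knockdown replicate 1, for counting error only and on the rough depths. In the whole table, 18 genes were at 0 in both replicate 1 libraries and above 0.3 FPKM in both replicate 2 libraries, and 7 showed the reverse. TWIST2 (chromosome 2, 239756673 to 239795893) was listed at 0 in all 4 libraries, for which the same limit is 0.0921 to 0.148 FPKM.

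Of the markers, the cadherins were at or near the limit of detection. CDH1 (chromosome 16, 68771128 to 68869451) stood at 0.0339 and 0.00812 FPKM in control cells against 0.0463 and 0.0425 FPKM after knockdown. These values are an estimated 2.87, 0.968, 4.78 and 4.42 fragments. A difference between values this low could not be resolved at this depth, though the knockdown values were the higher pair. CDH1 stayed under the 0.1 FPKM limit after knockdown, as in the controls. CDH2, the N-cadherin gene (chromosome 18, 25530930 to 25757410), stood at 0.0602 and 0.262 FPKM in control cells against 0.0864 and 0.332 FPKM after knockdown, from an estimated 3.89 to 19.1 fragments. Replicate 2 was 4.35-fold above replicate 1 in the controls and 3.84-fold in the knockdown, a larger gap than the 1.43-fold and 1.27-fold between knockdown and control within the numbers. Neither cadherin that gives the switch its name was therefore expressed by the 1 FPKM rule. None of the 10 loci overlaps that of another gene in the files.

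VIM, the gene of the mesenchymal intermediate filament vimentin, lies on chromosome 10 at 17270258 to 17279592 and ranked between 39 and 49 among all genes by level. It stood at 2068 and 1937 FPKM in control cells against 1814 and 1701 FPKM after knockdown. Both knockdown libraries were below both controls, by 1.14-fold in each replicate number and on the means. The log2 difference was -0.19 (SE 0.14, 95% interval -0.53 to 0.15, adjusted p 0.872 in limma). With the run as a term the interval was -0.45 to 0.07 and the adjusted p 0.356. The log2 differences in replicate numbers 1 and 2 were nearly equal, at -0.189 and -0.187. The width of that interval thus rests mostly on the variance that limma takes from other genes, and not on the spread of VIM itself. Leaving out 1 library at a time gave log2 differences from -0.23 to -0.14. The 466-residue ENST00000224237 held 99.3% to 99.6% of VIM in each library, and the value rests on an estimated 66580 to 88010 fragments.

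ESRP1 (chromosome 8, 95653302 to 95719694), which favours epithelial splice forms, was low, at 0.909 and 0.633 FPKM in control cells against 0.758 and 0.578 FPKM after knockdown, from 44.4 to 60.8 estimated fragments. The groups overlapped, and knockdown over control was 0.834 and 0.913 in the 2 replicate numbers. The share of its 681-residue transcript ENST00000433389 ranged from 0% to 94.3% between libraries, so the transcripts could not be resolved at this depth. Its paralog ESRP2, singled out after its values were seen, stood at 2.12 and 1.61 FPKM in control cells against 2.49 and 2.57 FPKM after knockdown (log2 difference 0.30, adjusted p 0.864 in limma and 0.329 with the run). The ESRP2 locus overlaps that of NFATC3.

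The surrounding pathway was read from 8 lists with 108 genes, of which 80 were tested. Without the run 0 passed in limma, and 11 were at an unadjusted p under 0.05, beside 773 of all 12136 tested genes (6.37%). With the run 7 passed, 4 higher and 3 lower, which is 8.75% beside 3.44% of all tested genes. The median log2 difference of the 80 was 0.05 (all genes 0.01), and in 35 of them (43.8%) the groups did not overlap, beside 35.9% of all tested genes. The lists were chosen with earlier results of these data known. Shares above those of all genes, here and in single lists, may therefore come from the choice, which was not tested. Among other transcription factors of the mesenchymal programme, 0 of 11 tested passed in either fit (median -0.04). ID1, an inhibitor of helix-loop-helix factors, was at 165 and 127 FPKM in control cells against 190.0 and 104 FPKM after knockdown, and HMGA2, an architectural chromatin protein, at 100.03, 89.1, 82.4 and 83.3 FPKM. Among transcription factors of the epithelial state, 5 of 12 were silent (GRHL2, GRHL3, OVOL1, OVOL2 and ELF5), and 0 of the 5 tested passed (median 0.15). KLF4 was at 16.2 and 11.2 FPKM in control cells against 16.2 and 14.2 FPKM after knockdown, and KLF5 at 6.43, 8.11, 7.69 and 8.56 FPKM.

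Among the corepressors and stability factors of Snail and ZEB proteins, all 20 were tested and 1 passed with the run, FBXL14 (median of the list 0.01). FBXL14, an F-box protein that marks SNAI1 protein for degradation, was at 4.89 and 3.86 FPKM in control cells against 2.19 and 1.82 FPKM after knockdown. Both knockdown libraries were below both controls, 2.18-fold on the means (log2 difference -0.84, adjusted p 0.0354 in limma with the run and 0.537 without). Its locus overlaps that of WNT5B, and the strand setting of the counting was not given in the sources used here, so reads of the 2 genes may be shared. CSNK2A1, a casein kinase 2 subunit, was at 121 and 122 FPKM in control cells against 97.5 and 107 FPKM after knockdown and did not pass, and the deacetylase gene HDAC2 was at 94.8, 119, 104 and 111 FPKM.

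Among the splicing regulators and their substrates, 0 of 11 tested genes passed (median -0.02). CD44, whose variant exons are a target of ESRP1, was at 230.0 and 229 FPKM in control cells against 212 and 233 FPKM after knockdown. Its 361-residue transcript ENST00000263398 held 37.6% to 42.6% of the value in every library, and ENST00000525469 10.5% to 14.3%. Other CD44 forms differed in both directions. ENST00000360158 was at 51.7 and 40.2 FPKM in control cells against 36.7 and 32.4 FPKM after knockdown. ENST00000433892 was at 9.45 and 7.59 FPKM against 14.9 and 15.7 FPKM. These transcript values were not tested. SRSF1 was at 126 and 186 FPKM in control cells against 143 and 213 FPKM after knockdown, so its replicate 2 libraries were the higher pair. Among intermediate filaments and their partners, 0 of 5 passed (median 0.10), with LMNA at 288, 266, 336 and 311 FPKM and PLEC at 239, 250.4, 262 and 259 FPKM in control 1, control 2, knockdown 1 and knockdown 2.

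Among the other cadherins and the catenins, 1 of 6 tested genes passed with the run (median 0.19). CDH11, a cadherin of mesenchymal cells, rose in that fit, from 15.8 and 9.38 FPKM in control replicates 1 and 2 to 28.4 and 13.6 FPKM in the knockdown (log2 difference 0.65, adjusted p 0.0364). The knockdown was higher within each replicate number, but the groups overlapped, and without the run the adjusted p was 0.854. Its log2 difference was 0.81 in replicate number 1 and 0.49 in number 2. It was 0.15 without knockdown replicate 1, 0.31 without control replicate 2, 0.997 without control replicate 1 and 1.16 without knockdown replicate 2. The values with 1 library left out also hold the gap between the replicate numbers, since replicate 1 was the higher in each group. The catenin genes CTNNA1 and CTNNB1, whose products tie cadherins to actin, were at 241 and 234 against 239 and 223 FPKM, and at 120.0 and 135 against 138 and 138 FPKM.

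Among epithelial genes repressed by Snail and ZEB factors, 1 of 12 tested passed with the run (median 0.11). The median of this list was 0.03 in replicate number 1 and 0.12 in number 2. Of the 12, 9 were above 0, beside 49 of the 80 tested genes of all lists. AP1M2, a subunit of an epithelial clathrin adaptor, rose from 24.4 and 22.2 FPKM to 36.9 and 33.1 FPKM (log2 difference 0.57, adjusted p 0.0256 with the run and 0.537 without). CLDN4, a tight-junction claudin and the most abundant of the list, was at 67.8 and 36.9 FPKM in control cells against 63.6 and 37.3 FPKM after knockdown, again ordered by replicate number and not by group. Among mesenchymal genes raised in the transition, 4 of 10 tested passed with the run, 2 higher and 2 lower (median -0.09). FN1, the fibronectin gene, rose by a log2 difference of 0.70 (adjusted p 0.0131). S100A4, a calcium-binding protein linked to cell motility, rose from 37.2 and 24.3 FPKM to 85.6 and 38.1 FPKM (0.91, adjusted p 0.0225), though its locus overlaps that of S100A3. The S100A4 difference was 1.18 in replicate number 1 and 0.63 in number 2. It was 0.33 without knockdown replicate 1 and 1.48 without knockdown replicate 2, and 0.61 and 1.20 without control replicates 2 and 1. These last 4 values also hold the gap between the replicate numbers. The receptor tyrosine kinase gene AXL fell with the run, from 292 and 318 FPKM in the controls to 227 and 231 FPKM (log2 difference -0.41, adjusted p 0.0469). In FN1, S100A4 and AXL the knockdown libraries did not overlap the controls, and without the run none passed in limma. With the run and no filter on low values, the adjusted p-values of all 7 passing pathway genes lay between 0.139 and 0.184, so these calls depend on the filter, and with the run and a pseudocount of 0.1 that of AXL was 0.0613.

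**Figure D5:**
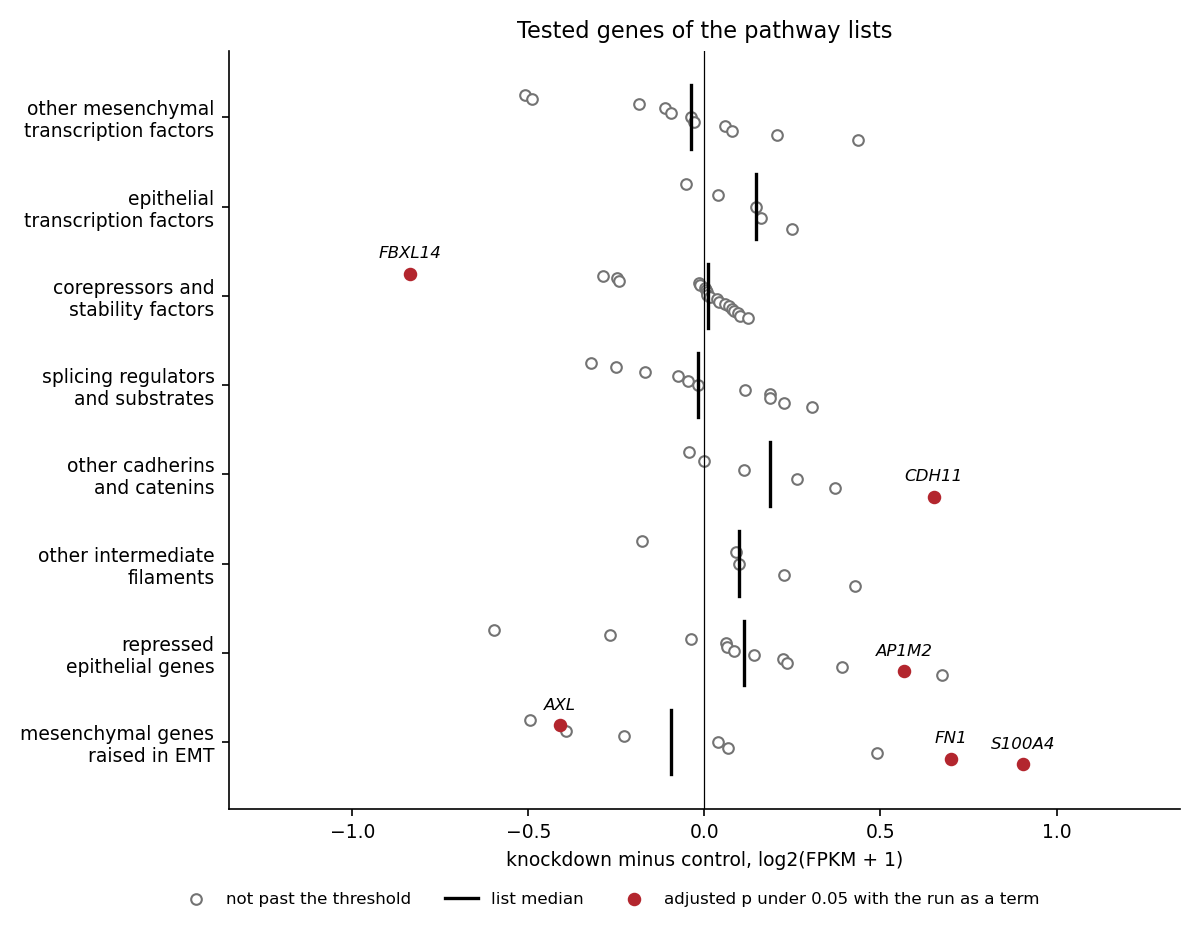
Knockdown minus control on the log2(FPKM + 1) scale for 79 of the 80 tested genes of the 8 pathway lists, 1 point per gene, with the median of all tested genes of a list as a tick. Filled points mark 6 of the 7 genes with an adjusted p under 0.05 in limma with the run as a term, 4 above and 2 below 0 (the other passing gene is not drawn).

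Genes with the profile most like that of VIM and of SNAI1, the tested gene with the largest spread, were sought by Euclidean distance between centred log2 values over the 4 libraries, among 12136 genes. The nearest to VIM were MKLN1 (distance 0.0127), PIGB (0.0241) and TRAFD1 (0.0247), and 268 genes lay within 0.1, so a profile like that of VIM was common. The nearest to SNAI1 was SOX21 (0.0165), at 2.92 and 0.920 FPKM in control cells against 1.07 and 0.411 FPKM after knockdown, and it was the 1 gene within 0.1. AMN1 (0.105) and FAM131C (0.109) came next. These are descriptions over 4 libraries and carry no test.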

How the data were processed

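RNA-seq of 2 control and 2 AURKA knockdown libraries was used, 1 deposited table per library with 81493 transcripts. The authors deposited a value per transcript with no unit in the header, read here as FPKM from the values. The program behind them was not given in the sources used here. Software listed in the submitters' processing notes was HTSeq 0.8.0 and bcl2fastq 2.19. The notes give the build as hg38, but a chromosome 4 locus in the files ends at 191013719, beyond the last GENCODE 29 gene end on that chromosome, 190196190, so coordinates are given as in the files, read as GRCh37, 1-based. Row order and 1707 loci differed between the replicate numbers and not within them, from which 2 quantification runs were inferred.

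The 81412 transcripts in all 4 tables were summed to 20137 genes by gene ID. The 12136 genes that reached 1 FPKM in 2 or more libraries were tested with limma-trend (limma 3.58.1, R 4.3.3) on log2(FPKM + 1), two-sided, with Benjamini-Hochberg adjustment over all of them and a threshold of 0.05. Differences on this scale understate those of low genes. The fit was repeated with the replicate number as a term, called the run after the inferred quantification runs. With 2 pairs, deviations from the group means correlated at 0.645 across genes between same-numbered libraries. The design named edgeR for whole counts, which these files do not hold, so neither it nor DESeq2 was run. The fit was tested on simulated data. Depth was estimated from ratios of low values, of which 58.5% (of 605 genes, replicate 1) and 50.8% (of 590, replicate 2) fell on whole-number ratios, against 1.8% and 2.0% at the median other constant. Estimated fragments and limits from them are rough.

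Text names all 10 genes, AURKA, and of each pathway list the genes past the threshold in either fit (at most 5 by absolute log2 difference) or, where fewer than 2 passed, also the 2 of highest mean. Values of 1 gene that the rule picks are not reported here. Transcripts of at least 10% in any library and the 3 nearest profiles were picked by rule, and not all such transcripts are given in the text. The genes and lists were chosen with earlier results of these data known. Alternatives were other pseudocounts, filters and scalings, the run as a term, and leaving out each library. Tables were made with Python 3.11.15 and pandas 2.3.3, figures with matplotlib 3.10.9.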

Additional observations from a re-analysis of the deposited data

How the results depend on the processing

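Of the 10 genes, 5 were tested in most settings, 3 with a 5 FPKM filter, 9 with no filter, and TWIST2 in none. Of those tested, SNAI1 was the 1 that passed in any setting, with the replicate block and another scaling: the count of these genes was 1 with the block and median-of-ratios scaling and 1 with the block and upper-quartile scaling. The replicate block (the run as a term, 2 pairs of libraries) gave 417 genes in all and 7 pathway genes. With the block, median-of-ratios scaling gave 896 and 14, upper-quartile scaling 890 and 13, and a pseudocount of 0.1 gave 287 and 6. Without the block, all genes past the threshold numbered 3 when scaled by medians of ratios, 2 when scaled by upper quartiles and 1 with a 5 FPKM filter, under which SNAI1 and SNAI2 were not tested. Leaving out each library gave 6 to 14 genes, 0 to 1 pathway genes (1 without control replicate 2) and an AURKA difference of -2.38 to -2.06. These fits set 1 library against 2 and take the spread from the other group alone, so their calls assume that the lone library varies like that group. AURKA also passed with the block (-2.22), by upper quartiles (-2.23) and by medians of ratios (-2.24), with or without the block, and with the block and a pseudocount of 0.1 (-2.27). With the block and no filter on low values, 0 genes passed. The causes of these shifts were not tested. Scaling moved the median of all genes by less than 0.05.

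Signs turned for small differences that passed no test. HDAC2 was at -0.00574 with median-of-ratios scaling, with or without the block. Leaving out each library gave log2 differences of -0.0617 to 0.157 for ZEB1, negative without control replicate 1 (-0.0164) or knockdown replicate 2. The ranges were -0.15 to 0.179 for HDAC2, -0.467 to 0.392 for CLDN4, -0.47 to 0.392 for ID1, -0.096 to 0.471 for SRSF1, -0.0894 to 0.41 for KLF4, -0.114 to 0.0186 for CD44 and -0.093 to 0.00514 for CTNNA1. Leaving out 1 library breaks the pairs, so any gap between the replicate numbers enters these differences. Within replicate numbers 1 and 2, ZEB1 (0.0025 and 0.0930), SRSF1 (0.185 and 0.190), KLF4 (0.000418 and 0.320) and CTNNA1 (-0.0158 and -0.0721) kept their sign. For ZEB1, KLF4 and CTNNA1 the difference in number 1 was close to none. HDAC2, CLDN4, ID1 and CD44 did not keep their sign. Depth limits CDH1, CDH2, TWIST1 and ESRP1, which rest on an estimated 0 to 60.8 fragments.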
